A study of Saccharomyces cerevisiae with 3 samples.

Results

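The comparison set a Saccharomyces cerevisiae strain lacking HHO1 against the wild type, both collected after 15 min of heat shock at 37 °C, so that strain was the labelled difference. It rested on 2 of the 3 arrays of the series, those labelled as the heat-shocked deletion strain and the heat-shocked wild type, and on 5895 of 6256 genes, those measured above background, in the sample or the reference, on both arrays. By the treatment notes, cells were grown in rich YPAD medium to an optical density of 0.5 and then heated quickly, from a temperature those notes do not give; the source labels and growth notes of the 37 °C samples instead say grown at 37 °C, and the treatment notes and the series' design text, which names a heat shock, were followed here. On each array the sample was hybridised together with wild-type RNA from 25 °C, the common reference. The deletion strain carried Cy3 and the wild type Cy5, and the arrays lay on different slides, so dye, slide and strain cannot be told apart. The third array held the unheated deletion strain in Cy3 over the same reference and is used only to show what the deletion did at 25 °C.

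HHO1 encodes the linker histone of budding yeast, which binds the DNA entering and leaving the nucleosome and is not needed for growth. Heat shock brings in Hsf1, the activator of chaperone genes, and Msn2 and Msn4, activators of general stress genes, while the genes that build ribosomes are shut down within minutes. Heat-shocked cells therefore hold many transcripts far above and many far below their level at 25 °C, and a strain difference at 37 °C is a difference in where those transcripts stood at 15 min.

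Each gene was read in 2 ways. The within-array reading is the log2 ratio of sample over reference on the deletion array minus that on the wild-type array, and a dye preference of a probe enters it 2 times. The same-dye reading sets the Cy3 deletion channel against the Cy3 reference of the other array, and the Cy5 wild-type channel against the Cy5 reference of the other array, so a dye preference cancels and differences in brightness between arrays remain. In both readings a positive value means more RNA in the deletion strain. Repeat spots of a gene differed with a root mean square SD of 0.087 in the within-array and 0.244 in the same-dye reading, against an SD over genes of 0.318 and 0.372. With 1 array per strain there was no biological replicate and no test, and a gene's SD covers only its 2 repeat spots.

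HHO1 itself had the lowest value in both readings. Its log2 ratio to the reference was -4.26 in the heat-shocked deletion strain and -0.34 in the heat-shocked wild type. The difference was -3.91 ± 0.01 (SD, 2 spots) within arrays and -3.88 in the same-dye reading. After subtraction of spot background HHO1 gave 11.2 units of signal where it was deleted and 3299 in wild-type cells, and 1 of its 2 deletion-strain spots was well above background. Such signals were not scaled between dyes: over all genes the median was 396 in the deletion strain (Cy3) and 965 in the wild type (Cy5). The offset used in the background correction limits the size of the ratio, which was -6.77 with the scanner's processed signals. The genes that lie beside HHO1 on its chromosome were also read, since a deletion can disturb its neighbours. TBF1, which encodes a telomere-binding transcription factor, was at 0.68 within arrays and 0.03 in the same-dye reading, and KAP120, a karyopherin gene, was at 0.57 and -0.10. NAN1, a ribosome assembly gene, was at 0.57 and 0.82, while SPC29, a spindle pole gene, was at -0.10 and -0.14 and TAF14 at 0.00 and -0.02. SPO19 was not well above background in the deletion strain. No measured neighbour passed the size rule described next. Of the 6 neighbours 5 lay above 0 within arrays, where 52% of all genes did. Their medians were 0.55 within arrays and 0.00 in the same-dye reading, against 0.01 and -0.02 for all genes. With the scanner's processed signals the neighbours' medians were 0.40 and -0.05. There 1 neighbour was higher by at least 0.58 in both readings, where 0.712% of all genes were.

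Most transcripts of the heat-shocked strains lay close to each other. Of the 5895 genes, 89.2% lay within 0.5 of 0 within arrays and 87.2% in the same-dye reading. The size rule asked for a mean log2 difference of 1 (2.0-fold) and at least 0.58 in each spot. By it, 11 genes were higher in the deletion strain within arrays, 0.187% of genes, and 24 were lower, 0.407%. The same rule on the same-dye reading gave 106 higher and 46 lower genes, 1.8% and 0.78%. Of the 35 genes past the rule within arrays, 22 had the same sign in the same-dye reading and 13 the opposite sign. Genes with a difference of at least 0.58 (1.49-fold) in the same direction in both readings and in every spot numbered 88 higher and 34 lower, HHO1 among the lower, which is 1.49% and 0.577% of genes. When the scanner's processed signals had to pass both readings as well, 27 higher and 23 lower genes were left, 0.458% and 0.39%. The scatter of both readings shows HHO1 alone at the far lower left and ribosome assembly genes at the upper right. In the upper left and lower right the readings have opposite signs. The stress genes SSA4, HSP26 and UBI4 lie in the upper left, and SAP1, COS12 and HSP12 in the lower right.

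**Figure D1:**
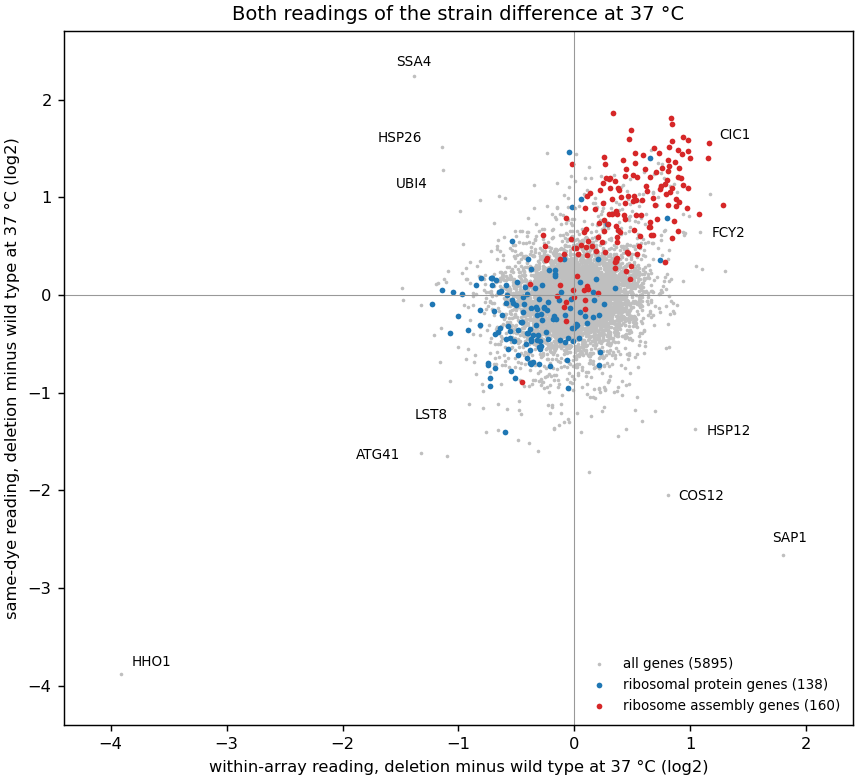
Strain difference of each gene at 37 °C in log2 units, deletion minus wild type, with the within-array reading on the horizontal and the same-dye reading on the vertical axis; each point is the mean over the spots of 1 gene. Ribosome assembly genes (red) lie mostly above 0 in both readings (139 of 160), ribosomal protein genes (blue) mostly below 0 in both (86 of 138), and HHO1 is at -3.91 and -3.88.

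Many of the transcripts that were lower in the heat-shocked deletion strain in both readings stood above the 25 °C reference in the wild type. Of the 34 genes lower in both readings, 18 stood at least 1 log2 unit above the 25 °C reference in wild-type cells, and 8 did so without HHO1, where 11.7% and 11.6% of all genes did. These genes were chosen for a lower value in the deletion strain than in the wild type. Both the wild-type count and the gap between the counts therefore follow in part from that choice. Their median log2 ratio to the reference was 1.05 with HHO1 and 0.24 without it, and at 25 °C the deletion strain had a median of -0.15 for the same genes. Most were not dim, with median signals of 570 above background in the deletion strain against 3781 in the wild type, but 8 of the 34 lay in the dimmest of 4 equal classes of all genes by brightness. Over all genes these median signals were 396 and 965.

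ATG41, an autophagy gene, was the lowest of these after HHO1 within arrays. Its log2 ratio to the reference was 1.58 in the deletion strain against 2.91 in the wild type. The difference was -1.33 ± 0.01 within arrays, -1.62 ± 0.03 in the same-dye reading, -1.54 with processed signals and 0.06 in the unheated strain. ATG41 was thus induced in both heat-shocked strains and stood 2.51-fold lower in the deletion strain within arrays. ZPR1, which encodes a zinc finger protein that helps fold the elongation factor eEF1A, had ratios of 0.95 and 2.02, a difference of -1.07 with no spread between its spots at this precision and -0.88 ± 0.22 in the same-dye reading. LST8, which encodes a subunit of the TOR kinase complexes, had ratios of 2.29 and 3.20 and differences of -0.91 and -1.12 on its only spot. In these genes the 25 °C reference channels of both arrays were close, at 8.62 and 8.76 for ATG41, 11.02 and 10.92 for ZPR1 and 10.49 and 10.59 for LST8 on the log2 scale of normalised channels. This is no separate check, because the gap between the reference channels is set by how far the 2 readings differ. Genes that pass in both readings must therefore have the larger gap in the heat-shocked channels.

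Further genes that stood above the reference in the heat-shocked wild type were lower in the deletion strain. NCE103, the carbonic anhydrase gene, had ratios of 1.68 in the deletion strain against 2.47 in the wild type, and differences of -0.79 ± 0.02 and -1.16 ± 0.28. RIE1, an RNA-binding protein gene, had ratios of 3.32 and 4.11 and differences of -0.79 and -0.98 on 1 spot. APJ1, a J-domain chaperone gene, had ratios of 2.23 and 2.81 and differences of -0.58 ± 0.05 and -1.16 ± 0.35. APJ1 was the only member of the chaperone list to be lower in both readings, out of 91 measured. In the list of the respiratory chain 2 of 38 members, 5.26%, were lower in both readings and none was higher, where 0.577% and 1.49% of all genes were. COX7, a cytochrome c oxidase subunit gene, stood at 0.03 over the reference in the deletion strain against 1.19 in the wild type, with differences of -1.16 and -0.69. QCR8, a subunit gene of the cytochrome bc1 complex, stood at 0.69 and 1.37, with differences of -0.68 and -0.71. Of that list 19 members lay below 0 in both readings and 3 above 0, where 27.3% of all genes lay below 0 and 26.5% above 0 in both. Among genes of up to 768 bases 41.1% lay below 0 in both, and the respiratory list was not split by length. The list's medians were -0.08 within arrays and -0.30 in the same-dye reading. AEP3, a mitochondrial gene-expression factor, was at -1.10 and -1.65, but its deletion-strain signal of 22.9 above background was dim.

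**Figure D2:**
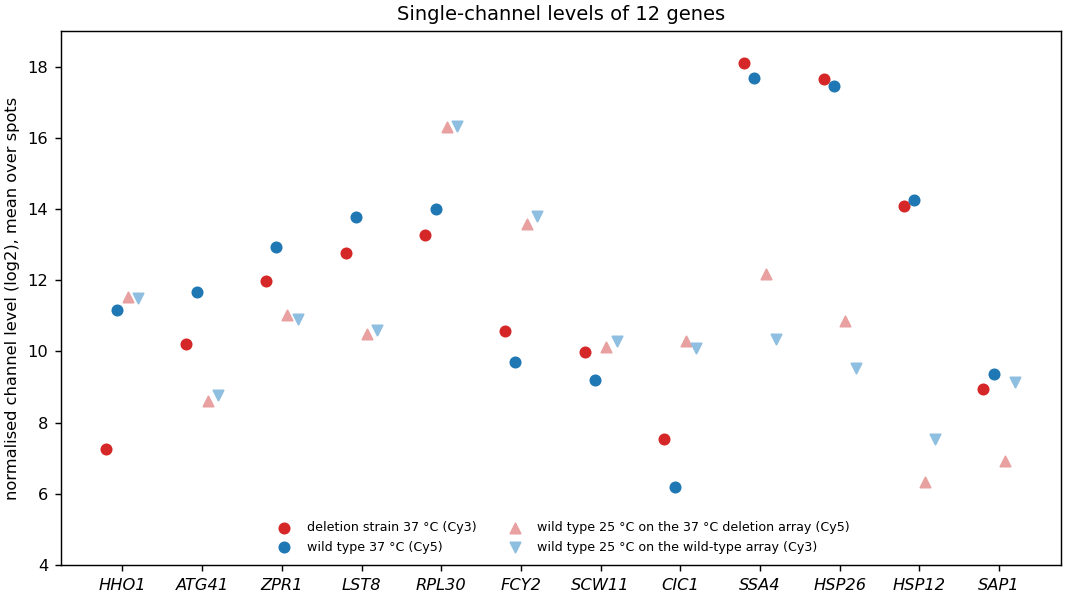
Normalised single-channel level in log2 units (mean over spots) of 12 genes in the heat-shocked deletion strain, the heat-shocked wild type and the wild-type 25 °C reference on each of both arrays. For ATG41 the strains stood at 10.20 and 11.67 with references at 8.62 and 8.76, whereas for SSA4 the strains stood at 18.11 and 17.68 and the references at 12.16 and 10.36.

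Ribosomal protein genes stood far below the 25 °C reference in both heat-shocked strains, and somewhat further below it in the deletion strain. Of 138 measured genes 86 lay below 0 in both readings and 10 above 0. The median log2 ratio to the reference was -2.83 in the deletion strain against -2.48 in the wild type, and the median difference was -0.35 within arrays and -0.21 in the same-dye reading, against 0.01 and -0.02 for all genes. With the scanner's processed signals the medians were -0.35 and -0.27, and in the authors' deposited table the within-array median was -0.47. The large subunit list had medians of -0.38 and -0.20 and the small subunit list -0.30 and -0.22. At 25 °C the median of the ribosomal protein genes in the deletion strain was -0.04. With the list in 4 classes of brightness, the same-dye medians at 37 °C were 0.11, -0.17, -0.34 and -0.45 from the dimmest to the brightest, and the within-array medians -0.17, -0.42, -0.37 and -0.29. In the dimmest class 8 of 35 members lay above 0 in both readings.

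Ribosomal proteins are made in matched amounts from many genes, most of them in near-identical pairs that these probes cannot be assumed to tell apart. In both readings 6 of the 138 were lower and 2 higher, where 0.577% and 1.49% of all genes were, so the higher count was close to that of all genes. RPS12, a small subunit gene, had ratios to the reference of -2.33 in the deletion strain against -1.59 in the wild type, with differences of -0.75 ± 0.10 and -0.70 ± 0.37. RPL30, a large subunit gene whose product also regulates its own messenger, had ratios of -3.01 and -2.33, with differences of -0.68 ± 0.07 and -0.75 ± 0.13. RPP2B and RPP0, genes of the ribosomal stalk, were at -0.74 and -0.72 within arrays and at -0.72 and -0.85 in the same-dye reading. RPS19B was at -0.73 and -0.93, and RPS2 at -0.60 and -1.40. The 2 higher members were RPL22B, at 0.65 and 1.40, and RPS9A, at 0.80 and 0.79. The ribosomal protein genes that passed the within-array size rule were others: RPL41A, RPL41B, RPS31, RPL24A and RPL14B lay between -1.22 and -1.01 within arrays but between -0.39 and 0.05 in the same-dye reading.

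Ribosomal protein genes are short, and the within-array reading moved with gene length. Genes were put in 4 equal classes by length, taken from the R64 gene table with introns included. In the shortest class, up to 768 bases, genes outside the ribosomal protein list had a median of -0.15 within arrays and -0.04 in the same-dye reading, and 39.9% of them lay below 0 in both readings. The 68 ribosomal protein genes of that class had medians of -0.41 and -0.19, with 63.2% below 0 in both. In the next class, up to 1245 bases, the other genes had medians of 0.03 and 0.01 with 24.2% below 0 in both, and the 68 ribosomal protein genes had -0.31 and -0.26 with 63.2%. Within both length classes the list's medians were thus lower than those of the other genes, in both readings. The 23 genes with a listed length that were lower past the size rule had a median length of 465 bases, against 1245 bases for all genes, and 15 of them were in the shortest class. The part of gene length in the single calls was not tested.

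**Figure D3:**
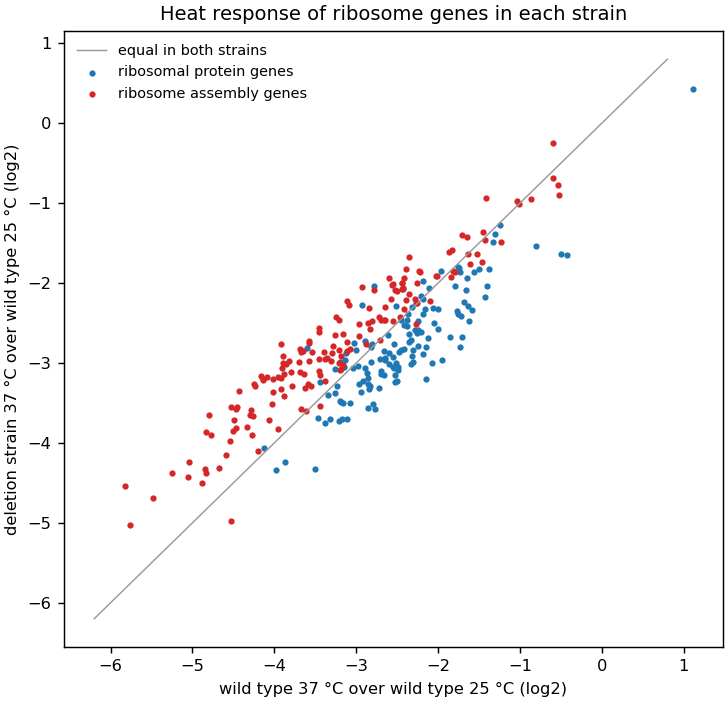
Log2 ratio of heat-shocked cells over the wild-type 25 °C reference for each ribosomal protein gene (blue) and ribosome assembly gene (red), with the wild type on the horizontal and the deletion strain on the vertical axis; the line marks equal ratios. Ribosomal protein genes lie mostly below the line (medians -2.83 in the deletion strain against -2.48 in the wild type) and assembly genes mostly above it (-2.84 and -3.29).

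Ribosome assembly genes, which encode the factors that process and fold ribosomal RNA into pre-ribosomes, formed most of the higher genes. Of 160 measured members 139 lay above 0 in both readings and 6 below 0, where 26.5% and 27.3% of all genes did. In both readings 56 members, 35%, were higher and none lower, where 1.49% and 0.577% of all genes were. The higher genes numbered 88 in all. The median log2 ratio to the reference was -2.84 in the deletion strain against -3.29 in the wild type, and the median difference was 0.44 within arrays and 0.87 in the same-dye reading. These genes stood far below the reference in both heat-shocked strains, and less far in the deletion strain. At 25 °C the median was -0.06.

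Among the members that also passed with the scanner's processed signals, 17 in all, CIC1, a factor of the early large subunit precursor, was the highest within arrays. Its ratios to the reference were -2.76 in the deletion strain against -3.92 in the wild type, and the differences were 1.16 ± 0.11 and 1.56 ± 0.37. DBP3, an RNA helicase gene of the large subunit pathway, had ratios of -3.65 and -4.80 and differences of 1.16 ± 0.02 and 1.40 ± 0.07. UTP9, a gene of the small subunit processome, had ratios of -3.20 and -4.14 and differences of 0.94 ± 0.10 and 1.12 ± 0.16. UTP7, of the same complex, had ratios of -2.05 and -2.93 and differences of 0.87 ± 0.04 and 0.98 ± 0.18. DBP3 and CIC1 were dim, with signals of 22.6 and 35.9 above background where HHO1 was deleted, against 31.3 and 31.0 in wild-type cells. UTP9 gave 67.9 and UTP7 75.3 where HHO1 was deleted, against 95.8 and 104 in wild-type cells. The median Cy3 spot background of the heat-shocked deletion array was 212. Both subunit pathways were involved, with 9 members of the large and 8 of the small subunit list among the 17. NOG1, a GTPase gene, was the highest of all within arrays at 1.28, with 0.92 in the same-dye reading on its only spot, but 0.77 and 0.09 with processed signals. NSR1, which encodes the yeast nucleolin, went the other way, at -0.45 and -0.90.

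The excess of the assembly genes moved with how dim they were. With the list in 4 equal classes of brightness, the median signal above background in the heat-shocked deletion strain was 7.35 in the dimmest class and 128 in the brightest, on a Cy3 spot background of 212, while the wild type was read in Cy5 on a background of 91. From the dimmest to the brightest class the within-array medians were 0.67, 0.65, 0.36 and 0.12, and 23, 23, 8 and 2 of 40 members were higher in both readings. With the scanner's processed signals the list medians were 0.00 and 0.02, 19 of 160 members were higher and 15 lower in both readings, where 0.712% and 2.12% of all genes were, and the dimmest class had a within-array median of -0.32. Of the 88 genes higher in both readings 82 lay in the dimmest of 4 such classes of all genes, and 85 stood at least 1 below the reference in both strains. The part of residual Cy3 background in these values was not tested. The brightest class of the list, with medians of 0.12 and 0.36, had -0.06 and 0.02 with processed signals.

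**Figure D4:**
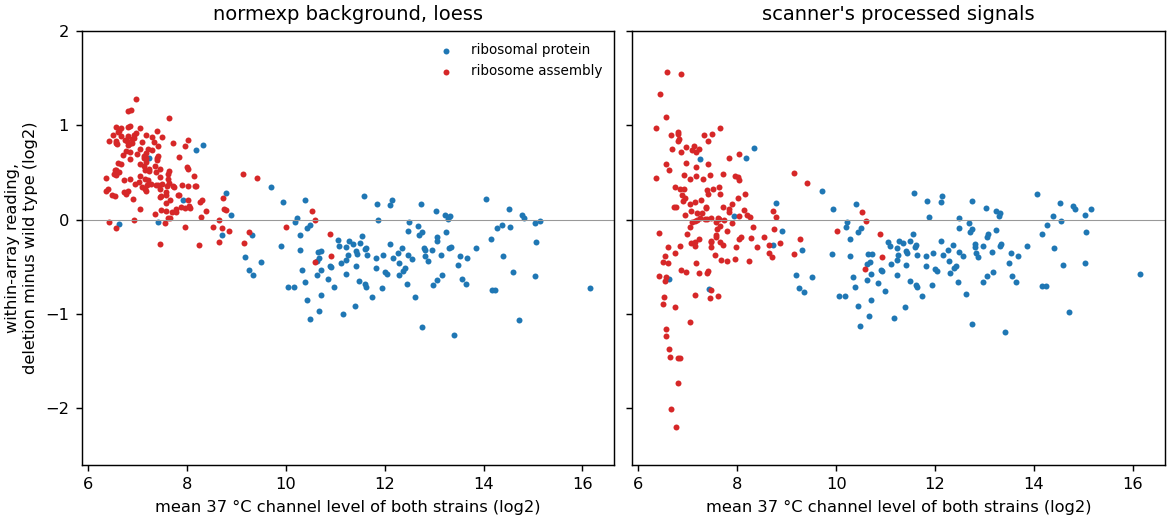
Within-array strain difference in log2 units of ribosome assembly genes (red) and ribosomal protein genes (blue) against their mean normalised level in both heat-shocked channels, with normexp background correction on the left and the scanner's processed signals on the right. On the left the dim assembly genes lie above 0 (median 0.67 in the dimmest of 4 classes); on the right they spread to both sides (median -0.32 there), and the ribosomal protein genes lie mostly below 0 in both panels (median -0.35 in each).

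Genes that work beside ribosome assembly gave the same picture in weaker form. Of 46 measured tRNA modification genes 29 lay above 0 in both readings and 6 below, where 26.5% and 27.3% of all genes did. The medians were 0.14 and 0.28, and 5 members, 10.9%, were higher in both readings, where 1.49% of all genes were. DUS3, a dihydrouridine synthase gene, was at 0.73 and 1.35, and PUS7, a pseudouridine synthase gene, at 0.74 and 1.25, and both also passed with processed signals. The list medians with processed signals were -0.06 and 0.07. Of 33 genes of RNA polymerases I and III and their factors 4, or 12.1%, were higher in both readings, where 1.49% of all genes were. The medians were 0.09 and 0.35, or -0.09 and -0.07 with processed signals. RPA49, an RNA polymerase I subunit gene, was at 1.17 and 1.04 but at 0.51 and -0.10 with processed signals, and RRN11, a gene of the core initiation factor of RNA polymerase I, was at 0.66 and 1.48 and at 1.16 and 1.37.

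Only a few of the higher genes were bright. Among genes brighter than the median gene, 4 were higher and 19 lower in both readings. FCY2, the purine and cytosine permease gene, had ratios to the reference of -3.02 in the deletion strain against -4.11 in the wild type, with differences of 1.09 ± 0.01 and 0.65 ± 0.19. Its unscaled signals were 838 and 1158 above background, where the medians over all genes were 396 and 965. SCW11, a cell wall glucanase gene, had ratios of -0.13 and -1.08 and differences of 0.95 ± 0.03 in the within-array and 0.63 ± 0.03 in the same-dye reading. ATG22, the gene of a vacuolar amino acid exporter, had ratios of 0.32 and -0.46 and differences of 0.77 ± 0.10 and 0.65 ± 0.02. All 3 also passed with processed signals, and at 25 °C they were at 0.25, 0.24 and 0.29 in the deletion strain. YIR043C, at 0.94 and 0.62, was already at 0.89 in the unheated deletion strain, and COS8, of the subtelomeric COS family, was at 1.30 and 0.25 after heat and at 1.02 without it. After subtraction of 2 times the 25 °C ratio they were at -0.83 and -0.75. The 25 °C array has the dyes of the 37 °C deletion array, so in these genes a strain difference and a dye preference of the probe cannot be told apart.

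SCW11 belongs to the genes that are switched on as daughter cells separate and enter G1. It was read in a list that also holds HO, and SWI5 of the G2 and M list. Most of that list stood a little higher in the deletion strain. Of 16 genes on the list of HO and daughter genes, 15 lay above 0 within arrays, where 52% of all genes did. In both readings 12 lay above 0 and none below 0, against 26.5% and 27.3% of all genes. The medians were 0.36 and 0.27, and 0.36 and 0.30 with processed signals, so both background treatments gave like medians. The median ratio to the reference was 0.05 in the deletion strain against -0.28 in the wild type, and 0.05 in the unheated deletion strain. AMN1, which represses mitotic exit in daughters, was at 0.67 ± 0.06 and 0.54 ± 0.16. HO, the mating type endonuclease gene, was at 0.69 ± 0.08 and 1.24 ± 0.13 but at 0.27 and 0.45 with processed signals. SIC1, the inhibitor of B-type cyclin kinase, was the exception, at -0.52 and 0.08. Only SCW11 and HO passed both readings, 12.5% of the list where 1.49% of all genes were higher, and the other 14 were below that size. In RNA from whole cultures, a change in the share of cells in G1 and a change in RNA per cell cannot be told apart.

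Medians of the G2 and M list and of the pheromone list were above 0 by less, and genes specific to a mating type were mixed. Over all genes 26.5% lay above 0 in both readings and 27.3% below. In the longer length classes, with median lengths of 1542 and 2628 bases, 22.5% and 18.2% lay below 0 in both. The within-array medians of those classes were 0.09 and 0.11, and the lists here were not split by length. Of 28 measured genes of G2 and M phase 11 lay above 0 in both readings and 1 below, with medians of 0.13 and 0.05. Of 30 pheromone response genes 14 lay above 0 in both and 6 below, with medians of 0.16 and 0.08. FAR1, the cell cycle inhibitor of the pheromone pathway, was at 0.75 ± 0.11 and 0.62 ± 0.29, with ratios to the reference of -1.81 in the deletion strain against -2.56 in the wild type. STE12, the transcription factor gene, was at 0.53 and 0.47. FAR1 was the only member of this list to pass both readings, 3.33% of the list where 1.49% of all genes were higher. Of 16 measured genes of the mating type list 6 lay above 0 in both readings and 4 below, with medians of -0.03 and 0.18, and none passed both readings. Among these, STE2, the receptor gene for alpha-factor, was at 0.78 and 0.33, and MFA1, a gene of the a-factor pheromone, at -0.61 and 0.15.

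Apart from HHO1, no gene of the chromatin lists passed the size rule or the both-readings rule. Of 10 core histone and variant genes 7 lay below 0 in both readings, where 27.3% of all genes did. Among genes of up to 768 bases 41.1% did, and the core histone list was not split by length. Only HHT1, at 0.01 and 0.18, lay above 0 in both, where 26.5% of all genes did. HTA1 and HTB1, a divergent pair of histone H2A and H2B genes, were at -0.40 and -0.29 within arrays and at -0.29 and -0.24 in the same-dye reading. HTA2 and HHF2 were both at -0.74 within arrays but at 0.03 and -0.12 in the same-dye reading. The list medians of the core histone genes were -0.25 and -0.13, or -0.22 and -0.16 with processed signals. The other genes of the linker histone and HMG-box list, which encode proteins that also bend or bind DNA outside the core particle, ranged from -0.46 for NHP6B to 0.29 for HMS1 within arrays. HMO1, the HMG-box protein gene tied to ribosomal protein and ribosomal DNA transcription, was at 0.02 and 0.01. Silencing genes had medians of 0.00 and -0.14, and genes of histone chaperones and remodellers 0.05 and -0.01, with no member past the both-readings rule in either list.

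Several heat shock and stress genes had large values of opposite sign in both readings. SSA4, a stress-induced Hsp70 gene, was at -1.38 within arrays and 2.24 in the same-dye reading. Its heat-shocked channels stood at 18.11 in the deletion strain against 17.68 in the wild type, while the 25 °C reference stood at 12.16 on the deletion array, 10.36 on the wild-type array and 9.25 on the third array. Set directly against each other, the heat-shocked channels thus differed by 0.43, a value that also holds the difference of dye and slide. HSP26, a small heat shock protein gene, was at -1.14 and 1.51, with strains at 17.65 and 17.47 and references at 10.85 and 9.52. UBI4, the polyubiquitin gene, was at -1.13 and 1.28, with strains at 17.53 and 17.46. HSP12, a membrane-protective stress gene, was the reverse, at 1.04 and -1.38, with strains at 14.08 and 14.24. In these 4 genes the heat-shocked channels were within 0.43 of each other and the 25 °C reference gave the larger gap between arrays.

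SAP1, an AAA ATPase gene, had the highest within-array value, 1.80, and rested on the same kind of gap. Its reference channel was 6.92 on the deletion array, 9.15 on the wild-type array and 8.97 on the third array, and the heat-shocked strains stood at 8.94 and 9.37. Its same-dye reading was -2.66. COS12, at 0.81 and -2.05, had references of 7.36 and 8.78. Reference channels were at least 1 apart in these 6 genes and more than 0.58 apart in 86 of 5895. Without those 86 genes the size rule gave 9 higher and 12 lower genes.

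As groups, chaperone and stress genes had small medians of varying sign. The 91 chaperone genes had medians of -0.13 and 0.05, the Hsp70 and Hsp110 list -0.16 and 0.24 and the Hsp90 list -0.25 and 0.40. HSP10, the mitochondrial chaperonin gene, was at -1.48 and -0.05, with ratios to the reference of 1.56 in the deletion strain against 3.05 in the wild type. The 62 general stress genes had medians of -0.05 and -0.18, and 1 of them, 1.61%, was lower in both readings, where 0.577% of all genes were. Glycolysis genes, 27 in all, had medians of -0.15 and 0.11. ADH1 and GPM1, an alcohol dehydrogenase and a phosphoglycerate mutase gene, were at -1.20 and -1.13 within arrays but at 0.11 and 0.17 in the same-dye reading, and at 25 °C already at -0.62 and -0.69. TEF2, near-identical to TEF1, was at -1.32 and -0.10 and at -0.96 at 25 °C. These lower calls were not shared by the same-dye reading.

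**Figure D5:**
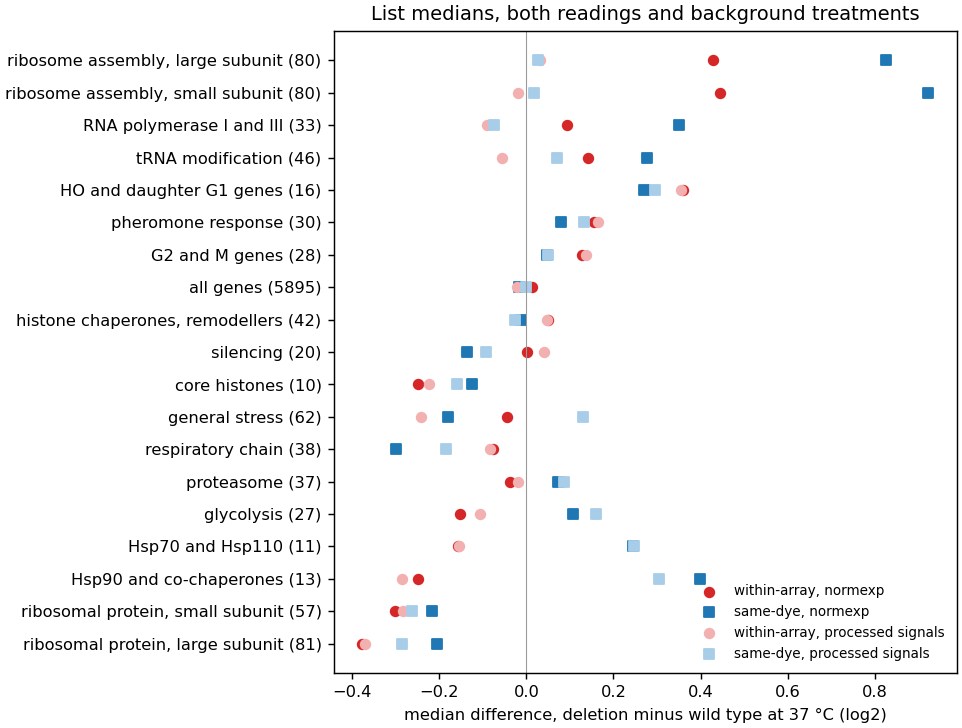
Median strain difference at 37 °C in log2 units for 18 gene lists and for all genes, as within-array (circles) and same-dye (squares) readings, with normexp correction (dark) and the scanner's processed signals (light); measured members are in brackets. Ribosomal protein lists lie below 0 and HO and daughter genes above 0 in all 4 values, assembly lists fall from 0.43 and 0.83 (large subunit) to 0.03 and 0.03, and Hsp70 and Hsp90 lists change sign between readings.

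The strains also shared features that the labels do not give. HIS3, LEU2, MET17 and URA3, biosynthetic genes that laboratory strains often lack as selectable markers, were not well above background in any of their 42 spot channels over the 3 arrays, with at most 6.19 above background. This held for the deletion strain and for the wild type alike, so these transcripts were near background in every sample. The remaining 6 genes of that list were measured and none passed the both-readings rule.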

How the data were processed

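Spot intensities came from the authors' deposited scanner files of 2-colour Agilent arrays; per the file headers they were made with Feature Extraction 9.1.1.1, which also gave processed intensities (background-subtracted and dye-normalised) and log10 ratios. The authors' deposited table holds log2 ratios; its correlation with the scanner's ratios, 0.964 for the deletion strain and 0.970 for the wild type at 37 °C, gave its direction as sample over reference. The submitters' processing notes name limma; how they used it is not stated there.

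Background was corrected with normexp (offset 50) and ratios with loess within arrays in limma 3.58.1 and R 4.3.3; control and outlier spots had weight 0, and single channels were scaled with Aquantile. No gene spot was saturated, and 90.0% of sample spots on the deletion array and 94.7% on the wild-type array were well above background. The number of arrays limits precision. Gene values are means over spots; 3704 genes had 2 spots and 2191 had 1. Names came from the R64 gene table (5756 of 6256 matched). The calculations were tested on simulated data.

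The samples, the 51 gene lists and the rules were chosen with earlier results of these data known. Named genes were HHO1, all genes past the size rule, up to 12 per direction past both readings, from each list the 4 largest within arrays and the 2 largest by the smaller of both readings, every member where a list held at most 12, and the neighbours of HHO1. Requiring the processed signals as well, the genes that pass it, and RPS2, RPS9A, SIC1 and NSR1 were chosen after values were seen. Alternatives changed the background correction, normalisation, spot filter, repeat spots and channel pairing. No sequences or coordinates are given, since no build for the probes was given.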

Additional observations from a re-analysis of the deposited data

Results flagged for a closer look

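RPL41A and RPL41B, near-identical genes of the smallest ribosomal protein, differed in direction between temperatures. RPL41A was at -1.22 at 37 °C, with ratios to the reference of -1.65 in the heat-shocked deletion strain and -0.43 in the wild type, and at 0.48 in the unheated deletion strain. RPL41B was at -1.14 at 37 °C and at 0.41 at 25 °C. Their same-dye readings at 37 °C were -0.09 and 0.05. The difference between the temperatures was not tested, and since probes cannot be assumed to tell the copies apart, they may be 1 measurement.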

How the results depend on the processing

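No paired analysis was possible because either strain had a single array at 37 °C, with no test. With 1 array per strain, leaving out a replicate gave no value, and the promoter motif classes were not run because no promoter sequences were used here. The single-channel pairings, the subtraction of 25 °C ratios and the deposited table gave no counts for both readings together. The processed-plus-normexp, brighter-gene and matching-reference settings were chosen after seeing the data.

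Counts within arrays, 11 higher and 24 lower, became 20 and 12 without background correction, 63 and 81 without an offset, 29 and 340 with processed signals, 590 and 605 with median centring (median of all genes -0.37), 28 and 100 in the authors' deposited table, 106 and 46 in same-dye channels, 34 and 6 with samples set directly against each other and 48 and 43 after subtracting 2 times the 25 °C ratio. The brightest spot gave 17 higher genes and matching reference channels 12 lower genes. The share of higher among called genes was 31.4%, and in the same order 62.5%, 43.8%, 7.86%, 49.4%, 21.9%, 69.7%, 85.0% and 52.7%, with 42.9% for matching reference channels. Counts in both readings, 88 higher and 34 lower, had 18 lower without background correction, 58 without an offset and 72 with median centring, 42 higher and 125 lower with processed signals, 27 higher where both treatments had to pass, and 4 higher and 19 lower among genes brighter than the median gene.

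The HHO1 difference ranged from -6.77 to -3.0, and only subtracting its 25 °C ratio 2 times turned it, to 4.76, since HHO1 was at -4.34 at 25 °C. Sign changes of called genes were HSP12 to -0.12 with processed signals; in same-dye channels HSP26 to 1.51, YCR043C to 0.25, MRP10 to 0.076, RPL41B to 0.053, DAD1 to 0.13, SAP1 to -2.66, SSA4 to 2.24, HSP12 to -1.38, RPL24A to 0.034, SOD1 to 0.12, GPM1 to 0.17, UBI4 to 1.28 and ADH1 to 0.11; with samples set directly HSP26 to 0.19, SAP1 to -0.43, SSA4 to 0.43, HSP12 to -0.17 and UBI4 to 0.074; and after the 25 °C subtraction TEF2 to 0.60, RPL24A to 0.070, COS8 to -0.75, GPM1 to 0.25, RPS31 to 0.080 and ADH1 to 0.046. The cause of these changes was not tested. Of the other gene values recomputed, 2083 kept direction and side of the size rule or moved by no more than the spot spread, 1015 moved further below it, 258 newly passed it and 90 no longer did. Signal over background limits transcripts that heat lowered.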
